A study of Homo sapiens with 6 samples.

Results

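The genes described here build and run the machinery that copies DNA, from the proteins that mark a replication origin to those that polymerize and join DNA at the fork. They were chosen by name, as the rows of the deposited count table that carry 1 of 49 gene symbols, and all 49 were found among the 24960 genes of the table. The libraries came from K562 cells, an established human chronic myeloid leukemia (CML) line that carries the BCR::ABL fusion and grows in suspension. Of the 6 libraries, 3 were labelled control and 3 hyperoside, a flavonol glycoside found in plants. Hyperoside was given at 2 mM, a dose that the labels leave out, and neither the vehicle of the control group nor the hours of treatment before RNA extraction are given in the sources used here. The labels do not say that the replicates were separate cultures, so p-values measure the spread between these libraries, which may be technical.

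A cell copies its genome once per cycle in a fixed order of steps. In G1 phase the origin recognition complex (ORC), with CDC6 and CDT1, loads the ring-shaped MCM2-7 helicase onto DNA, which is called licensing, and geminin (GMNN) later holds CDT1 back so that no origin is licensed again. In S phase the CDC7-DBF4 kinase acts on the loaded ring, CDC45 and the GINS complex join it to make the active helicase, polymerase alpha-primase lays primers, and polymerases epsilon and delta extend them with the sliding clamp PCNA, which the RFC complex loads. Many of these genes are transcribed at the border of G1 and S under E2F transcription factors.

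Library totals ran from 35613283 to 36754725 counts, and 15095 genes had enough counts to be tested. The labels name bone as the tissue and K562 as the line, and the markers fit the line: all 13 listed erythroid markers of K562 cells were detected, with a summed level of 6096 to 7616 CPM (counts scaled to library size) in the control group and 5419 to 6451 in the hyperoside group. Among markers of other blood cells, GP1BA had no count in any library. The summed level of the megakaryocyte markers was 32.7 to 39.5 CPM in the control group and 58.3 to 62.1 in the hyperoside group. That of 8 monocyte and granulocyte markers, 5 of them under 1 CPM, was 207.8 to 217.04 and 269.1 to 305.2, and that of 7 lymphoid markers, also 5 under 1 CPM, was 32.3 to 38.9 and 41.1 to 46.1. The megakaryocyte, the monocyte and granulocyte, and the lymphoid sums were higher with hyperoside without overlap, while the erythroid sums overlapped. The rise was not particular to blood markers. The sum of 8 stromal and epithelial markers was 92.1 to 98.9 CPM in the control group and 109.7 to 119 with hyperoside. Most of the lymphoid sum was CD3D, with 35.9, 35.1 and 28.3 CPM in the controls against 42.5, 38.3 and 40.7 with hyperoside. Single markers could differ from their sum, as ITGA2B had 26.2, 24.6 and 19.2 CPM in the controls against 17.6, 17.9 and 19.1 with hyperoside. The part of the marker levels in the values below was not tested.

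RefSeq windows on GRCh38.p14, each from 250 bases before to 50 bases after a transcription start, matched 43 of the 49 genes by symbol (all but MCM4, MCM5, GINS4, POLD3, RPA2 and RPA3). An E2F word was taken as any of TTTCCCGC, TTTCGCGC, TTTGCCGC and TTTGGCGC on either strand. At least 1 such word stood in the windows of 22 of the 43 genes, or 51.2%. The share was 6.62% among the 11721 tested genes that have a window. Counted per window, it was 40.7% of the 54 windows of the list against 3.31% of all 35116 windows. In 15 of the 22 genes a word lay wholly before the start. The stretches around the first word in the window are shown for the 8 genes that hold one and whose change passed the test given further on, and for 4 that did not pass, because the same word stood beside genes of every outcome. Each has 28 bases, read 5′ to 3′ on the strand of the gene, with the word in capitals.
CDC6 (lower, chr17:40287876-40287903, plus strand): gccattcggaTTTGGCGCgagcgcggct
GINS2 (lower, chr16:85688968-85688995, minus strand): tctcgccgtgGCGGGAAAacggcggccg
GMNN (lower, chr6:24775323-24775350, plus strand): ctgggtcggtTTTGGCGCgctctcactt
MCM6 (lower, chr2:135876578-135876605, minus strand): gggctttgcaTTTGGCGCgaaatccctt
RFC3 (lower, chr13:33818084-33818111, plus strand): tttggagctcGCGGGAAAacttgtctct
GINS3 (higher, chr16:58392456-58392483, plus strand): gtccccgggcGCGGGAAAcgagtttcaa
POLA1 (higher, chrX:24693771-24693798, plus strand): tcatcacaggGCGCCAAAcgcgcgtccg
POLE (higher, chr12:132687343-132687370, minus strand): gggtgggagcGCGCCAAAtttctcccct
CDT1 (not past the threshold, chr16:88803744-88803771, plus strand): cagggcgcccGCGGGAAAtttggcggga
MCM2 (not past the threshold, chr3:127598403-127598430, plus strand): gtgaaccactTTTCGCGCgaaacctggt
MCM7 (not past the threshold, chr7:100101567-100101594, minus strand): agctcggaccGCGGGAAAcccggcgcct
PCNA (not past the threshold, chr20:5126664-5126691, minus strand): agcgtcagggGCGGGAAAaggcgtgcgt

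In MCM6 and POLA1 the 160 bases before the start contain no annotated exon of the gene, and both are shown in full because one gene was lower and the other higher with hyperoside. The MCM6 stretch (chr2:135876444-135876603, minus strand) carries 4 E2F words in 2 overlapping pairs. The POLA1 stretch (chrX:24693758-24693917, plus strand) carries 1.
MCM6: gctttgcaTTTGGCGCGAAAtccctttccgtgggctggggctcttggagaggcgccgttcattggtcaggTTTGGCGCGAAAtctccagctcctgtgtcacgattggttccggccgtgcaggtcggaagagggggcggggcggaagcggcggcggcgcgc
POLA1: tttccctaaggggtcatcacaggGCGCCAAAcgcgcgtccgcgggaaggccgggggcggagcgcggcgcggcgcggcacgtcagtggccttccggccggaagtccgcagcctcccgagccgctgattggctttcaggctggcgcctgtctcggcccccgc

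By outcome, the E2F word stood in 5 of the 15 lower genes with a window, in 3 of the 6 higher genes and in 14 of the 22 that did not pass. The CCAAT box (CCAAT on either strand), which the factor NF-Y binds, was in the windows of 60.5% of the 43 genes and of 42.8% of tested genes. The CHR element (TTTGAA or TTCGAA on either strand) is known from promoters of genes that peak in G2 and M phase. It was in 2 of the 43 replication genes, or 4.65%, against 15.7% of tested genes and 78.3% of the 23 mitotic genes with a window that served for comparison. These matches describe letters in a window and do not show that a factor binds there.

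**Figure D1:**
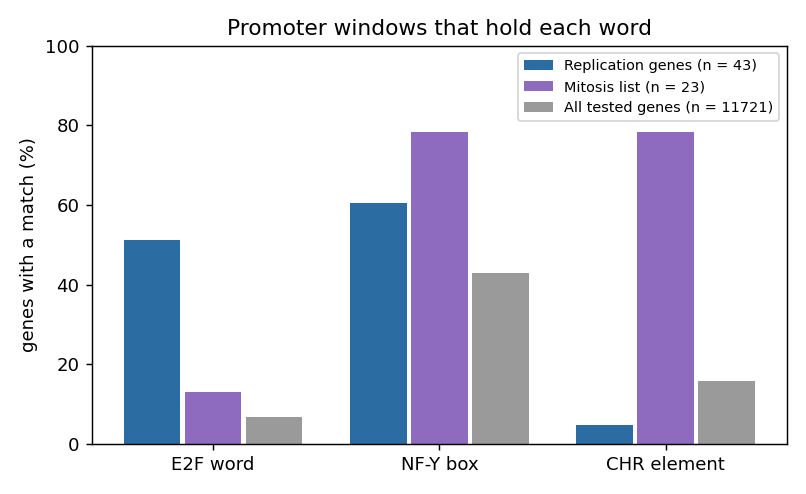
Share of genes (%, vertical axis) whose promoter window holds an E2F word, a CCAAT box (marked NF-Y box) or a CHR element, for 43 replication genes, 23 mitotic genes and 11721 tested genes. The E2F word stands out in the replication genes at 51.2% and the CHR element in the mitotic genes at 78.3%.

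Hyperoside moved individual replication genes by modest amounts and in both directions. All 49 genes passed the filter on low counts. With hyperoside, 17 were lower and 6 higher, and 26 did not pass the test. Passing means an adjusted p under 0.05 in the quasi-likelihood test of edgeR, Benjamini-Hochberg over 15095 genes. That fit gave every adjusted p and standard error (SE) printed here unless limma, another scaling or filter, or a left-out library is named. The 23 called genes were 46.9% of the list, near the 45.3% of all tested genes that were called. Among the 7833 tested genes in the abundance range of the list (17.1 to 576 mean CPM), 53% were called and the median size of the log2 change was 0.24, against 0.17 for the 49 genes. By direction, 34.7% of the list was lower against 23.2% of tested genes, and 12.2% was higher against 22.1%. None of the 49 changed by more than 2-fold, neither among genes called by edgeR, nor at an unadjusted p under 0.05, nor with DESeq2, against 10.2% of tested genes called with a fold above 2 and 3.03% of those in the same abundance range. The median log2 change (the log2 of the fold of hyperoside over control) of the list was -0.10, against 0.0032 over all tested genes. With upper-quartile scaling it was -0.06 against 0.044, and on the FPKM scales -0.05 against 0.027 to 0.049. Single log2 values ran from -0.69 (ORC6) to 0.65 (GINS3) with SEs of 0.07 to 0.12. In 28 of the 49 genes, or 57.1%, the CPM of the groups did not overlap, against 54.4% of tested genes. Bulk RNA cannot tell fewer cells in S phase from fewer transcripts per cell. With control replicate 1 left out, 17 of the 49 genes were lower and 10 higher. In that fit 3618 of 15541 tested genes were lower and 3549 higher. The smaller share of higher genes in the list thus depended on this library.

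**Figure D2:**
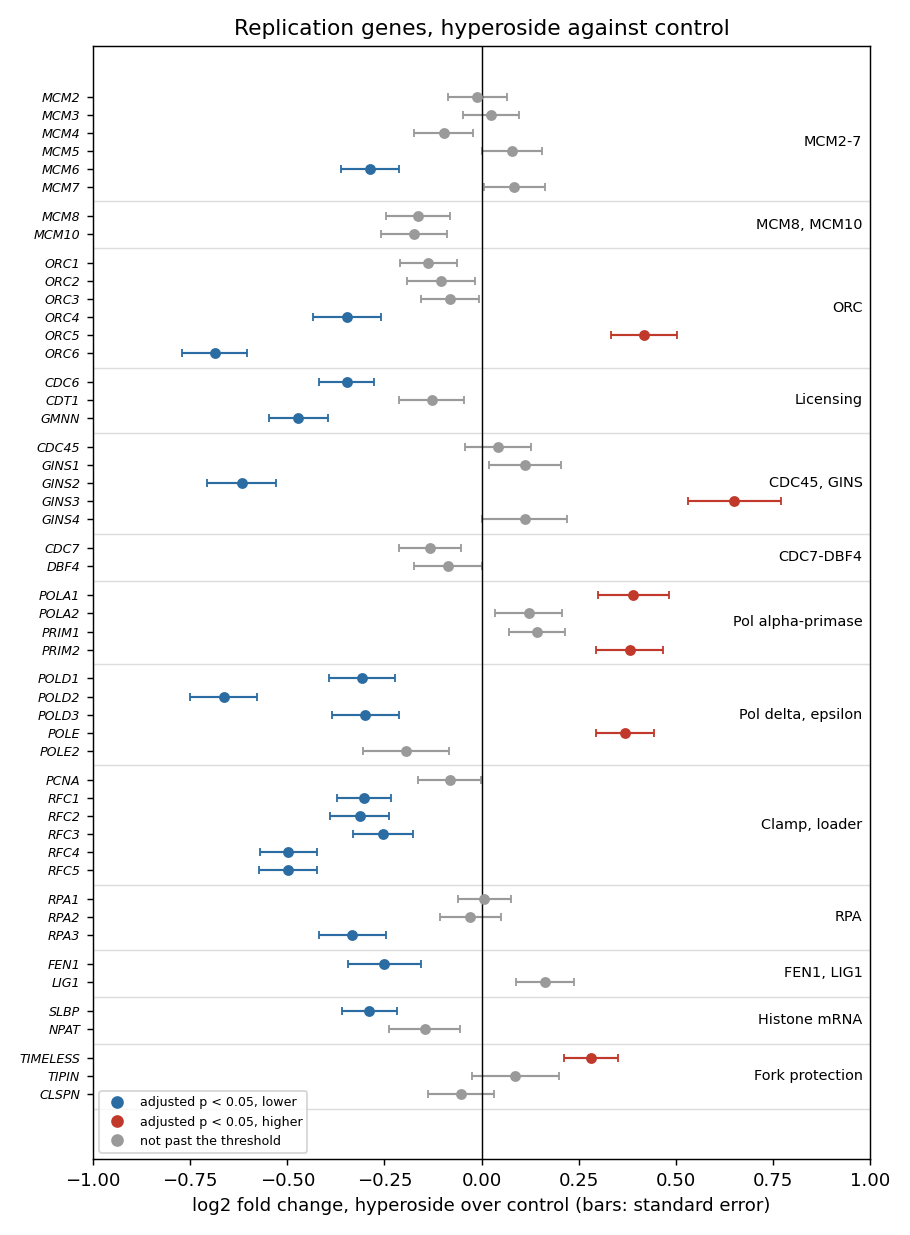
Log2 change of hyperoside over control (horizontal axis) of the 49 replication genes, ordered by role, with bars for the standard error (3 libraries per group). Blue genes were lower and red genes higher at an adjusted p under 0.05, and the values lie between -0.69 and 0.65, with all 5 RFC genes on the lower side.

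Levels between genes were compared per length, on the deposited scale of FPKM (counts scaled to gene length and to the library total). In the control group MCM7 was the highest of the 49 at 182 ± 15.9 FPKM (SD, n = 3 libraries), followed by RFC4 at 98.5 ± 3.74 and PCNA at 96.9 ± 5.81, which did not differ beyond their spread. The lowest were TIPIN at 4.38 ± 0.397 and NPAT at 5.27 ± 0.607 FPKM. Their ranges overlapped, but NPAT exceeded TIPIN within each control library. The gene length behind the deposited FPKM was recovered from the ratio of counts to FPKM, and it was long for some genes, such as 11245 bases for RFC3 and 10951 for MCM8 against 1365 for RFC4, so the order of levels rests on these lengths.

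**Figure D3:**
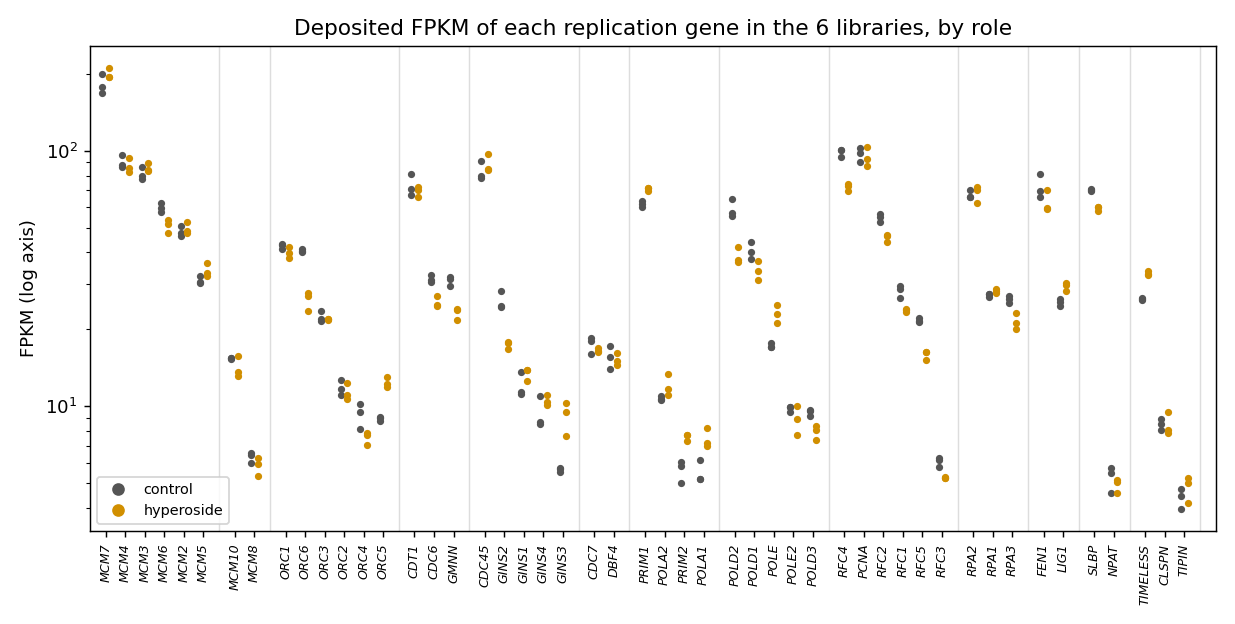
Deposited FPKM (log axis) of each replication gene in the 3 control and the 3 hyperoside libraries, with genes grouped by role and ordered by their control mean. Levels run from under 5 FPKM in TIPIN to about 200 in MCM7, and the shift of a gene between the groups is small beside the range between genes.

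The MCM2-7 genes encode the 6 subunits of the replicative helicase ring, and of these MCM6 alone was called. MCM6 had 245, 228 and 215 CPM in the controls against 189, 198 and 177 with hyperoside (here and for each gene, replicates 1, 2 and 3 in that order). All 3 hyperoside libraries lay under all 3 control libraries, with a log2 change of -0.29 (SE 0.07, adjusted p = 0.00407). MCM2 had 187, 169.9 and 162 CPM in the controls against 163, 182 and 169.7 with hyperoside. The MCM2 values of the groups overlapped, and its log2 change of -0.01 had a 95% interval of -0.17 to 0.15 and an adjusted p of 0.918.

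MCM7, whose gene also hosts microRNAs in an intron, had 629.7, 540.4 and 508 CPM in the controls against 574, 625 and 580.1 with hyperoside. Control replicate 1 held the highest value and control replicate 3 the lowest, so the groups overlapped. Its log2 change was 0.08 (SE 0.08, adjusted p = 0.404), and without control replicate 1 it was 0.18 with an adjusted p of 0.0192. MCM3, MCM4 and MCM5 had log2 changes of 0.02, -0.10 and 0.08 with adjusted p between 0.314 and 0.813. Per length the ring subunits were unequal in the control group, from 31.1 ± 1.16 FPKM for MCM5 to 182 ± 15.9 for MCM7 (SD, n = 3). The highest exceeded the lowest by 6.16, 5.84 and 5.53-fold in the controls against 6.03, 5.79 and 5.85-fold with hyperoside. The groups overlapped in this ratio. MCM6 as a ratio to MCM7 went from 0.312, 0.339 and 0.341 in the control replicates to 0.264, 0.254 and 0.245 with hyperoside, without overlap. This pair was chosen after its values were seen. It joins the lowest and the highest log2 change of the ring, so the ratio restates those changes.

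MCM8 and MCM10 are not part of the ring. MCM10, which helps the active helicase leave the origin, had 74.0, 71.8 and 70.0 CPM in the controls against 60.5, 70.9 and 59.7 with hyperoside. Its hyperoside replicate 2 lay within the control range, and its log2 change of -0.17 did not pass (SE 0.08, adjusted p = 0.102), but without hyperoside replicate 2 it was -0.26 with an adjusted p of 0.0315. MCM8, a relative that acts in recombination, had -0.16 (SE 0.08, adjusted p = 0.112).

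The 6 ORC genes did not move together, with ORC4 and ORC6 lower, ORC5 higher and ORC1, ORC2 and ORC3 not past the threshold. ORC6, the smallest subunit, had 75.0, 71.5 and 72.4 CPM in the controls against 47.7, 46.9 and 41.4 with hyperoside. The highest hyperoside library was well under the lowest control library, and the log2 change of -0.69 was the most negative of the 49 genes (SE 0.08, adjusted p = 3.31e-06). ORC5, described in full because its direction was opposite and so chosen after its values were seen, had 36.1, 36.2 and 35.4 CPM in the controls against 45.7, 50.5 and 47.7 with hyperoside. Each hyperoside library exceeded each control library, with a log2 change of 0.42 (SE 0.08, adjusted p = 0.000622). The ratio of ORC6 to ORC5 in FPKM was 4.66, 4.42 and 4.58 in the controls against 2.34, 2.08 and 1.94 with hyperoside.

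ORC4 had a log2 change of -0.35 (SE 0.09, adjusted p = 0.00357), and its exons overlap exons of ACVR2A and MBD5 on the other strand in GENCODE 29. ORC1, the subunit whose protein is known to cycle, had 148, 141 and 134 CPM in the controls against 122, 134 and 129 with hyperoside. The lowest control library and the highest hyperoside library almost touched, and the log2 change was -0.14 (SE 0.07, adjusted p = 0.134, 95% interval -0.29 to 0.02). ORC3 had 78.6, 77.9 and 82.3 CPM in the controls against 74.2, 75.3 and 76.2 with hyperoside, with -0.08 on the log2 scale (SE 0.07, adjusted p = 0.398). Its groups did not overlap, and the difference was about as large as its SE. ORC2 gave -0.10 with an adjusted p of 0.357.

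Of the 3 licensing genes, CDC6 and GMNN were lower. CDC6, the ATPase that joins ORC to load the helicase, had 151, 149 and 154 CPM in the controls against 114, 126 and 117 with hyperoside. The groups were clearly apart, with a log2 change of -0.35 (SE 0.07, adjusted p = 0.000674). GMNN, the inhibitor of licensing, had 138, 136 and 123 CPM in the controls against 97.2, 98.4 and 90.4 with hyperoside. It fell by 0.47 on the log2 scale (SE 0.08, adjusted p = 6.64e-05), again without overlap. CDT1, the target of geminin, had 226, 180.4 and 189 CPM in the controls against 182, 172 and 190.1 with hyperoside. Control replicate 1 stood above the other 5 libraries, which overlapped, and the log2 change of -0.13 did not pass (SE 0.08, adjusted p = 0.223, 95% interval -0.30 to 0.05). The ratio of GMNN to CDT1 in FPKM was 0.389, 0.479 and 0.415 in the controls against 0.34, 0.365 and 0.303 with hyperoside, so that every hyperoside library lay under every control library.

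The genes that turn the loaded ring into an active helicase included both a lower and a higher GINS subunit. GINS2 had 77.5, 64.8 and 64.7 CPM in the controls against 45.3, 46.1 and 43.6 with hyperoside, a log2 change of -0.62 (SE 0.09, adjusted p = 2.19e-05). Its hyperoside libraries lay close together and under all controls. GINS3, described in full after its values were seen, had 13.7, 13.4 and 12.8 CPM in the controls against 21.6, 23.5 and 17.6 with hyperoside, a log2 change of 0.65 (SE 0.12, adjusted p = 0.000257). This was the largest rise among the 49 genes, in the subunit with the lowest level. The GINS proteins form a complex with 1 copy of each, but RNA values do not give protein levels. The ratio of GINS2 to GINS3 in FPKM was 4.99, 4.25 and 4.46 in the controls against 1.85, 1.73 and 2.18 with hyperoside. These are the GINS genes with the lowest and the highest log2 change, so the ratio restates their changes. Exons of GINS2 overlap those of GSE1, and exons of GINS3 those of a non-coding gene, on the other strand.

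GINS1 and GINS4 had log2 changes of 0.11 and 0.11 and did not pass (adjusted p = 0.341 and 0.431), although GINS4 passed without control replicate 1, at 0.26 (adjusted p = 0.0135). CDC45 had 231, 194 and 189 CPM in the controls against 199.9, 230.0 and 202 with hyperoside. Its groups overlapped widely, with a log2 change of 0.04 and a 95% interval of -0.14 to 0.22 (adjusted p = 0.721). The kinase genes did not pass either. CDC7, the catalytic subunit, had 58.9, 66.2 and 63.7 CPM in the controls against 56.6, 58.5 and 57.1 with hyperoside, a log2 change of -0.13 (SE 0.08, adjusted p = 0.191), and DBF4, its activating subunit, had -0.09 (SE 0.09, adjusted p = 0.448).

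**Figure D4:**
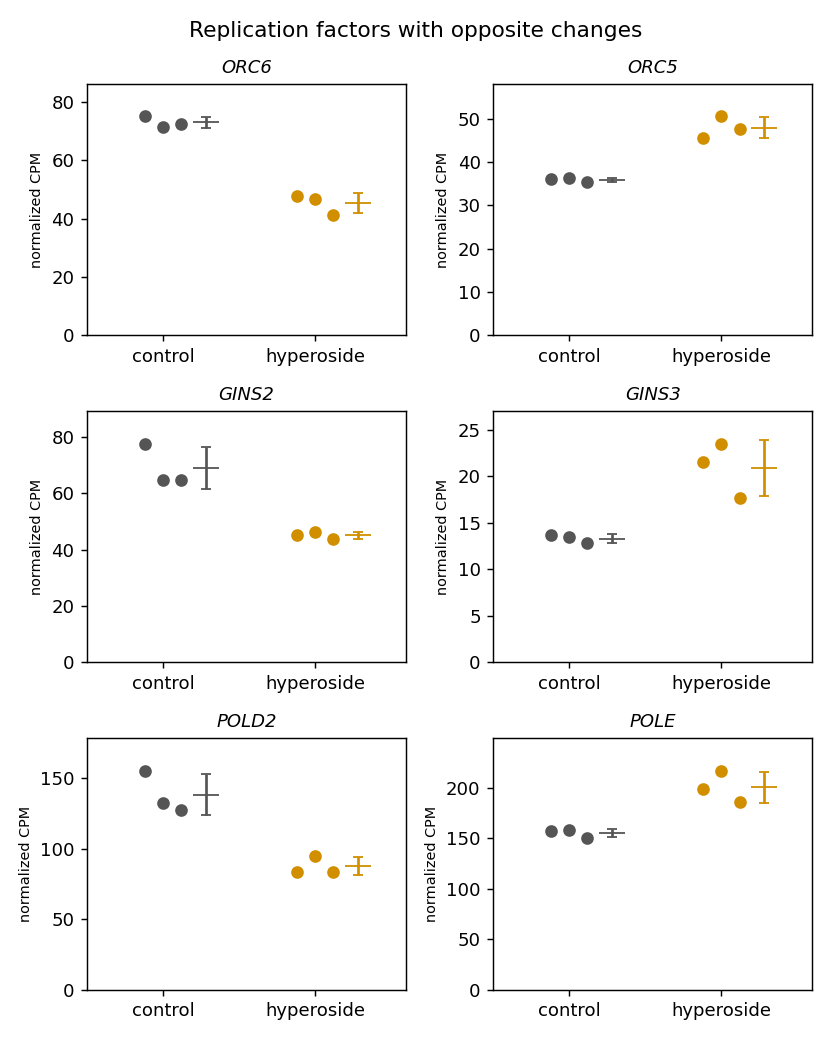
Normalized CPM (vertical axes, from 0) of ORC6, ORC5, GINS2, GINS3, POLD2 and POLE in the 3 control and the 3 hyperoside libraries, with the mean and SD of each group beside the points. The left column holds genes that were lower and the right column genes that were higher with hyperoside, and in none of the 6 do the groups overlap.

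Among polymerase genes, 2 of the 4 subunits of polymerase alpha-primase and the catalytic subunit of polymerase epsilon were higher, and the 3 listed subunits of polymerase delta were lower. The delta subunit POLD4 and the epsilon subunits POLE3 and POLE4 are not among the 49 and were named after their values were seen. Their log2 changes of 0.19, 0.07 and 0.11 did not pass (adjusted p = 0.144, 0.573 and 0.612). PRIM2, the large primase subunit, had 37.4, 43.5 and 41.5 CPM in the controls against 50.9, 54.2 and 54.3 with hyperoside, a log2 change of 0.38 (SE 0.09, adjusted p = 0.00172). POLA1, the catalytic subunit of polymerase alpha, had a log2 change of 0.39 (SE 0.09, adjusted p = 0.00218). POLA2, its accessory subunit, had 58.0, 55.6 and 56.8 CPM in the controls against 59.5, 68.6 and 57.2 with hyperoside. The POLA2 groups overlapped, and 0.12 did not pass (SE 0.09, adjusted p = 0.264). PRIM1, the small primase subunit that makes the RNA primer, had 0.14 (adjusted p = 0.116). It passed without control replicate 1 (adjusted p = 0.0422), with upper-quartile scaling (adjusted p = 0.0457) and on the FPKM scales (limma, adjusted p = 0.011 and 0.0121), and its exons overlap those of NACA and HSD17B6.

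POLD2, the accessory subunit that ties polymerase delta together, had 155, 133 and 127 CPM in the controls against 83.6, 94.7 and 83.7 with hyperoside. It fell by 0.66 on the log2 scale (SE 0.09, adjusted p = 6.76e-06), with the groups far apart. POLD1, the catalytic subunit, had -0.31 (SE 0.09, adjusted p = 0.0069), and POLD3 had -0.30 (SE 0.09, adjusted p = 0.00878). The POLD1 call was lost without hyperoside replicate 1 (adjusted p = 0.0642) and the POLD3 call without hyperoside replicate 3 (adjusted p = 0.0682). POLE, the catalytic subunit of polymerase epsilon, which copies the leading strand, was described in full after its values were seen and had 158, 158 and 150.3 CPM in the controls against 199, 217 and 186 with hyperoside. It rose by 0.37 on the log2 scale (SE 0.07, adjusted p = 0.000568). POLE2, the second subunit of the same enzyme, had 22.2, 20.7 and 21.4 CPM in the controls against 18.6, 21.2 and 16.4 with hyperoside, overlapping groups, and -0.19 (SE 0.11, adjusted p = 0.166). The ratio of POLD2 to POLE in FPKM was 3.79, 3.24 and 3.26 in the controls against 1.62, 1.68 and 1.74 with hyperoside, and that of POLD1 to POLE was 2.58, 2.15 and 2.35 in the controls against 1.36, 1.49 and 1.59.

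All 5 RFC genes, which encode the loader of the sliding clamp, were lower in the hyperoside group. RFC4 had 144, 139 and 128 CPM in the controls against 97.2, 99.9 and 93.9 with hyperoside, a log2 change of -0.50 (SE 0.07, adjusted p = 2.91e-05). No RFC gene had overlapping groups, which also held for 54.4% of all tested genes, and 23.2% of all tested genes were called lower. RFC5 also had -0.50 (SE 0.08, adjusted p = 3.47e-05), followed by RFC2 with -0.31, RFC1, the large subunit, with -0.30 and RFC3 with -0.25 (adjusted p = 0.00278, 0.00175 and 0.0117). The RFC3 call was lost without control replicate 2 (adjusted p = 0.0538), without hyperoside replicate 1 (adjusted p = 0.0574) and on the FPKM scales (limma, adjusted p = 0.0916 and 0.0883). Exons of RFC4 overlap those of EIF4A2 and exons of RFC5 those of WSB2, on the other strand, and the sources used here do not say whether the counting used strand, without which such reads cannot be told apart. In all, 21 of the 49 genes, 9 of them called, have exons that overlap another annotated gene. Among the called genes, FEN1 overlaps FADS2 on the same strand, and POLD1 and POLD3 each overlap another annotated gene on the same strand. Counting by strand would not separate such reads. PCNA, the clamp itself, had 149.6, 128 and 136 CPM in the controls against 127, 143 and 121 with hyperoside. Its groups overlapped, and its log2 change of -0.08 had a 95% interval of -0.25 to 0.09 and an adjusted p of 0.434. In GENCODE 29, PCNA, RFC3, RFC5, POLD2, FEN1, DBF4 and RPA2 have pseudogenes named for them, and the counts of these 7 genes are uncertain to the extent that reads are shared.

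The RPA genes encode the trimer that coats single-stranded DNA, and the smallest subunit was the one called. RPA3 had 53.4, 53.7 and 54.3 CPM in the controls against 39.7, 42.2 and 46.3 with hyperoside, a log2 change of -0.33 (SE 0.09, adjusted p = 0.0042). Its exons overlap those of UMAD1 on the other strand. RPA1, the large subunit, had 156, 147 and 149 CPM in the controls against 153, 151 and 150.0 with hyperoside. Its log2 change of 0.0073 had the narrowest standard error of the 49 genes, 0.07, and a 95% interval of -0.14 to 0.15 (adjusted p = 0.94), and RPA2 had -0.03 (adjusted p = 0.79).

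Of the enzymes that finish Okazaki fragments, the short pieces of the lagging strand, FEN1 was lower and LIG1 did not pass. FEN1, the nuclease that trims the flap, had 172, 143 and 133 CPM in the controls against 118, 139.6 and 119 with hyperoside. Hyperoside replicate 2 lay above control replicate 3, which made FEN1 the called gene whose groups overlapped. Its log2 change of -0.25 (SE 0.09, adjusted p = 0.0374) was also the least secure call, lost without control replicate 1 (-0.13, adjusted p = 0.135), without hyperoside replicate 1 (adjusted p = 0.164) and without hyperoside replicate 3 (adjusted p = 0.17), with upper-quartile scaling and on the FPKM scales. LIG1, the ligase that seals the nick, had 0.16 (SE 0.07, adjusted p = 0.0806), and it passed on the higher side without control replicate 1 (adjusted p = 0.0266), with upper-quartile scaling (adjusted p = 0.0311), among genes of at least 1 CPM (adjusted p = 0.0469) and on the FPKM scales (limma, adjusted p = 0.0152 and 0.0157).

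SLBP binds the stem-loop of replication-dependent histone mRNAs, and NPAT switches on their transcription as S phase begins. SLBP had 135, 129 and 125 CPM in the controls against 106, 107 and 105 with hyperoside. All hyperoside libraries were lower, with a log2 change of -0.29 (SE 0.07, adjusted p = 0.00278). NPAT had -0.15 (SE 0.09, adjusted p = 0.202) and passed without control replicate 1 (-0.22, adjusted p = 0.0266).

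Of the 3 genes that stabilize a paused fork and pass its signal on, TIMELESS was higher. It had 142, 139 and 134 CPM in the controls against 164, 172 and 169 with hyperoside, a log2 change of 0.28 (SE 0.07, adjusted p = 0.0028). Every hyperoside library exceeded every control library. CLSPN, the adaptor of the checkpoint kinase CHEK1, had 78.5, 83.5 and 78.5 CPM in the controls against 72.9, 86.7 and 72.2 with hyperoside. These overlapped, with -0.05 and a 95% interval of -0.23 to 0.13 (adjusted p = 0.641). TIPIN, the partner of TIMELESS, had 0.09 (adjusted p = 0.558) at the lowest level of the 3.

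Lists of other genes of the same process, which hold none of the 49, were counted in the same fit, to be read beside the 22.1% of all tested genes that were higher and the 23.2% that were lower. Of 27 tested other replication factors, 6 were higher (22.2%) and 10 lower (37%), with a median log2 change of -0.08. TICRR, which brings CDC45 to the loaded ring, had 79.5, 80.4 and 73.2 CPM in the controls against 49.6, 56.3 and 47.4 with hyperoside, a log2 change of -0.60 (SE 0.09, adjusted p = 1.9e-05). DTL, the adaptor through which a ubiquitin ligase destroys CDT1 at PCNA, had -0.40 (SE 0.07, adjusted p = 0.00013), and CUL4A, the scaffold of that ligase, had 0.27 (SE 0.07, adjusted p = 0.00528). Of 15 chromatin assembly genes, 1 was higher (6.67%) and 3 lower (20%, median -0.06), among them UHRF1 with 0.30 and RBBP7, a histone-binding protein, with -0.36 (adjusted p = 0.0254 and 0.000474). Of 18 checkpoint and fork repair genes, 4 were higher and 4 lower (22.2% each, median -0.04), near those shares. WEE1, the kinase that restrains CDK1, had 0.35 (SE 0.07, adjusted p = 0.000722).

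Lists of cycle regulators and nucleotide enzymes were counted beside the same shares, and the 42.1% called in the first and the last of them lay near the 45.3% of all tested genes. Among 19 genes of E2F, the RB family and the DREAM complex, with MYBL2 and FOXM1 added, 5 were higher (26.3%) and 3 lower (15.8%, median 0.11). This list pools activators with repressors, so its counts and median do not describe a single activity. FOXM1 had 0.45 (SE 0.08, adjusted p = 0.000282) and RBL2, the repressor p130, had -0.42 (SE 0.07, adjusted p = 0.000146). Among 17 G1 and S cyclins, kinases and inhibitors, 2 were higher (11.8%) and 9 lower (52.9%, median -0.28). The lower genes included the inhibitors CDKN2D (-1.05, adjusted p = 2.99e-05) and CDKN1C (-0.34, adjusted p = 0.0471), and the higher genes the inhibitor CDKN1B (0.27, adjusted p = 0.039). CCND2, which encodes cyclin D2, had 85.3, 94.1 and 94.7 CPM in the controls against 46.5, 48.6 and 42.4 with hyperoside, a log2 change of -0.995 (SE 0.08, adjusted p = 4.77e-08), while CDK4, a kinase that cyclin D binds, had 0.45 (SE 0.08, adjusted p = 0.000158). Of 19 genes of nucleotide supply, 2 were higher (10.5%) and 6 lower (31.6%, median -0.10), with TYMS, thymidylate synthase, at 0.50 and GART, a purine enzyme, at -0.39 (adjusted p = 9.01e-05 and 0.000409).

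Mitotic genes had the highest share of lower genes among the lists counted. Of 27 tested, 20 (74.1%, against 23.2% of all tested genes) were lower and 1 higher, with a median log2 change of -0.40, against 17 of 49 and a median of -0.10 for the replication genes. The difference between the lists was not tested. PTTG1, which encodes securin, had 202, 180.1 and 172 CPM in the controls against 94.8, 89.3 and 97.3 with hyperoside, a log2 change of -0.98 (SE 0.08, adjusted p = 2.56e-08). Its groups were far apart. CDK1, the mitotic kinase, had -0.65 (SE 0.07, adjusted p = 1.48e-06), and ASPM, a spindle pole protein, was the gene that was higher, at 0.49 (SE 0.11, adjusted p = 0.00162).

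**Figure D5:**
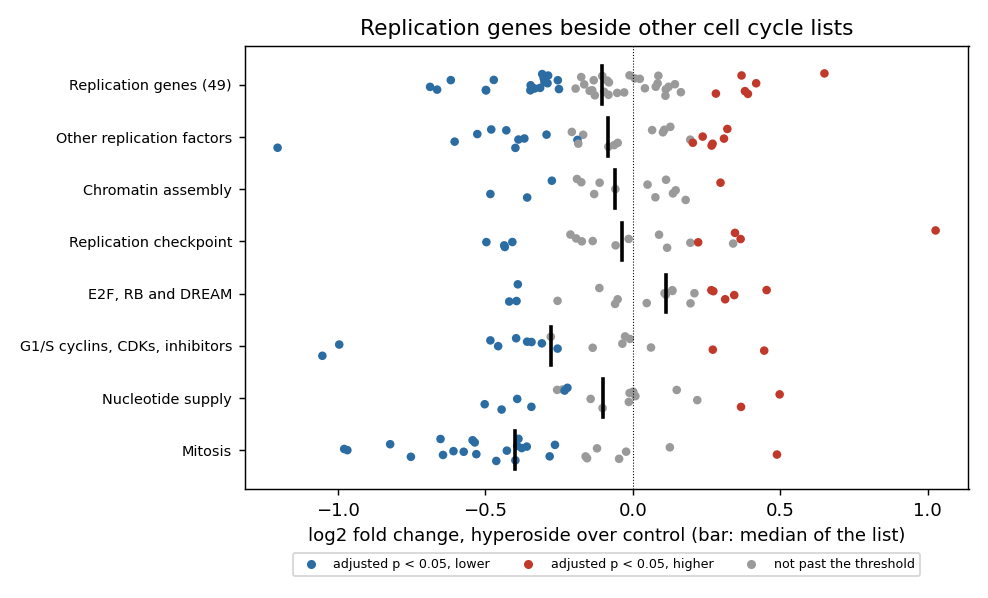
Log2 change of hyperoside over control (horizontal axis) of each tested gene in the 49 replication genes and in 7 comparison lists, with a black bar for the median of each list. Blue and red genes were lower and higher at an adjusted p under 0.05, and the medians run from -0.40 for mitosis to 0.11 for E2F, RB and DREAM, with -0.10 for the replication genes.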

How the data were processed

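The authors deposited raw counts per gene, and FPKM values made by scaling those counts to gene length and library total. Per the labels, RNA was extracted with TRIzol, and the submitters' processing notes name fastp, HISAT2, HTSeq and the build hg38, with no versions. The annotation and the strand setting are not given in the sources used here.

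edgeR 4.0.16 (R 4.3.3) was run on the counts of all 24960 genes. Its filterByExpr (minimum count 10, minimum total 15) kept 15095 genes holding 99.9% of counts, and TMM scaling and the quasi-likelihood test followed, with treatment as the only term and Benjamini-Hochberg adjustment. The SE is the size of the log2 fold change divided by the square root of F, and the 95% interval uses the t quantile of that test. CPM are TMM-scaled, and deposited FPKM are not. Alternatives were DESeq2 1.42.0, limma 3.58.1 on log2(FPKM + 1) and log2(FPKM + 0.1), other scalings and filters, a replicate block, and fits without 1 library. The fit was tested on simulated counts. Python 3.11.15 with pandas 2.3.3 and matplotlib 3.10.9 made the summaries and plots. Promoters came from RefSeq (GRCh38.p14) and exon overlaps from GENCODE 29.

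The 49 genes and the comparison lists were chosen with earlier results of these data known. Library values are given for the gene with the smallest and, in classes of 3 or more, the largest p of each role, and for PCNA, MCM2, MCM7, ORC1, CDC6, CDT1, GMNN, CDC45 and SLBP. Each comparison list gives its gene with the smallest p per direction and a few more. Some genes that these rules and lists take are not reported here. Replicates differed by more than counting error (chi-square per degree of freedom 6.34 to 23.1), so p-values rest on the spread between libraries.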

Additional observations from a re-analysis of the deposited data

How the results depend on the processing

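No count moved by more than 1.5 times under the 8 alternatives that kept all libraries: 15 to 17 genes were lower, 6 to 8 higher and 0 had a fold above 2. Of the 23 called genes, 19 kept their call under all 14 alternatives, and POLD1, POLD3, RFC3 and FEN1 lost it under at least 1 without changing direction. With 1 library left out, 14 to 18 genes were lower, 6 to 10 higher (the most without control replicate 1), and the median log2 change was -0.15 to -0.07. The median was -0.06 with upper-quartile scaling and -0.05 on both FPKM scales. Replicate numbers did not pair the libraries, as same-numbered ones correlated at -0.08 to -0.03 in their deviations from the group means, and with the replicate block 16 genes were lower, 6 higher and the median was -0.10, with the FEN1 call lost.

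Signs turned in 6 uncalled genes near 0, and the cause was not tested. MCM2 was 0.030 with upper-quartile scaling, 0.0050 with genes of at least 1 CPM and 0.039 on both FPKM scales, and RPA2 was 0.011 with upper-quartile scaling and 0.019 on both FPKM scales. With 1 library left out, the log2 change ran from -0.058 to 0.052 in MCM2, -0.025 to 0.092 in MCM3, -0.027 to 0.14 in CDC45, -0.013 to 0.035 in RPA1, -0.068 to 0.035 in RPA2 and -0.14 to 0.0054 in CLSPN. With 3 libraries per group, uncalled genes are bounded only by their intervals.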
